A study of Mus musculus with 18 samples.

Results

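Kupffer-like cells from the livers of mice with a ligated bile duct (BDL) were compared with Kupffer-like cells from sham-operated mice (Sham). The genes described are the 12748 of 54532 in the table with an FPKM of 1 or more in 3 or more of the 6 Kupffer libraries, 3 of each treatment, out of 18 libraries in the series. FPKM, fragments of a transcript scaled by its length and by the library's mapped fragments, is a level per length. The other 12 libraries are of hepatocytes (MPH) and biliary epithelial cells (BECs) from Sham and BDL livers, 3 of each kind and treatment. The 2 Kupffer groups differ in the labels by the operation alone, and strain, genotype, age, time after surgery, isolation and animals per library were not used here because no label states them. The labels do not tie each library to an animal, so a p-value reflects how far these libraries spread, which may be technical. By Xist and Y-linked transcripts, Sham 1 and BDL 1 had a male pattern and the other 4 libraries a female one.

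Kupffer cells are macrophages fixed in the liver sinusoids, where they clear particles, complement-coated microbes and aged red cells from portal blood. They are marked by the lectin Clec4f, the complement receptor Vsig4 and the adhesion receptor Adgre1 (F4/80), and they are held in their niche by signals from endothelial, stellate and parenchymal cells. Bile duct ligation blocks bile flow, and in the liver it is known for cholestatic injury, neutrophil influx, ductular reaction and fibrosis, with macrophages as a main source of cytokines and of factors that act on stellate cells.

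The 6 libraries held 15788619 to 17490676 reads in genes, recovered from the FPKM steps. Mitochondrial genes took 1.47% to 7.14% of the reads, highest in BDL 2, and globin genes 0.0411% to 2.22%, highest in BDL 3 and next in Sham 1 (1.29%). BDL 3 stood apart from BDL 1 and BDL 2. Across genes on the log2(FPKM + 1) scale, its Pearson correlation was 0.887 with BDL 1 and 0.891 with BDL 2, against 0.952 between BDL 1 and BDL 2 and 0.952 to 0.976 among the Sham libraries. BDL 3 differed from the mean of the other BDL libraries by more than 1 log2 unit at 1854 genes, against 1046 for BDL 1 and 829 for BDL 2. The median ratio of the BDL to the Sham standard deviation was 1.96. List counts of calls that moved by more than 1.5 times without it are therefore given both ways.

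The labelled cell type was checked against its markers. Clec4f stood at 1507, 1557 and 1812 FPKM in Sham 1, 2 and 3 and at 1705, 1213 and 295 in BDL 1, 2 and 3. Vsig4 stood at 561, 629 and 647 in Sham and at 1379.7, 1096 and 167 in BDL. Adgre1 stood at 238, 208 and 283 in Sham and at 394, 221 and 90.6 in BDL. All 3 markers were abundant in every library, BDL 3 had the lowest level of each, and the groups overlapped since BDL 1 and BDL 2 lay well above BDL 3 and within or above the Sham range for most. In the same table the mean Clec4f level was 11.2 FPKM in Sham BECs and 733 in Sham MPH, the latter below every Kupffer library but BDL 3.

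Ligation was compared with sham by limma on log2(FPKM + 1), and a gene was called where its Benjamini-Hochberg adjusted p was under 0.05. A log2 fold change below is the BDL mean minus the Sham mean on that scale, which understates the change of low genes. Of the 12748 genes, 494 were called (3.88%), with 188 rises (1.47%) and 306 falls (2.4%). The change reached 2-fold in 131 of the rises and 224 of the falls. All 494 called genes had groups that did not overlap, as did 4119 genes in all (32.3%), of which 2131 were higher in BDL (16.7%) and 1988 lower (15.6%). The median log2 fold change over all genes was 0.03. In this bulk RNA, fewer cells of a type and less RNA per cell cannot be told apart.

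The count of calls turned on single libraries. Without BDL 3, 2272 of 12364 genes were called (18.4%), 1147 of them rises (9.28%) and 1125 falls (9.1%), and 471 of the 494 genes were called again with the same sign. List counts without BDL 3 are to be read against these shares of 9.28% and 9.1%. List counts with 6 libraries are to be read against 1.47% rises and 2.4% falls. Without BDL 1, 533 genes were called, with 143 rises and 390 falls, and 286 of the 494 were among them. Without Sham 1, Sham 2, Sham 3 or BDL 2, limma called 0 genes, with 2281, 1752, 1814 and 2319 genes at an unadjusted p under 0.05. Every call of ligation against sham with 6 libraries is thus lost when any 1 of these 4 libraries is left out. With all 6 libraries 3070 of the 12748 genes had an unadjusted p under 0.05, the share against which list counts at that p are to be read. Scaling each library to a common FPKM sum lowered the median over all genes to -0.24 and gave 116 rises and 626 falls. Scaling to the recovered reads lowered it to -0.14 and gave 147 rises and 527 falls. With the sex pattern as a covariate limma called 1 gene, with 2905 at an unadjusted p under 0.05.

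The 10 largest rises and falls below were taken among called genes with a mean of at least 5 FPKM in the higher group. Predicted-gene names and repeated symbols were left out. The 10 largest rises were led by acute-phase proteins, which the liver secretes in inflammation. Saa2, a serum amyloid A apolipoprotein (chromosome 7, 46751790 to 46754313, plus strand, GRCm38), stood at 0.965, 0.305 and 0.0785 FPKM in Sham and at 53.9, 316 and 47.5 in BDL, a log2 fold change of 6.07 (SE 0.74, limma adjusted p = 0.025). It passed the level rule through the BDL libraries alone, as did 23 of the 188 rises, so its large fold is partly set by a Sham level near 0. Saa1, its near-identical neighbour, rose by 5.40 (adjusted p = 0.0412), and reads of these copies may be split between them. Orm2, an orosomucoid that binds small lipophilic molecules in plasma, stood at 2.62, 3.24 and 3.64 in Sham and at 29.8, 50.3 and 44.1 in BDL (3.32, SE 0.22, adjusted p = 0.0208). Sham was uniformly low and BDL uniformly high for Orm2, with a gap of several fold between the groups.

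Hamp (hepcidin, which makes macrophages and gut cells retain iron) rose by 4.72, Lcn2 (lipocalin 2, which binds bacterial siderophores) by 3.49, Orm1 by 4.03 and Hp (haptoglobin, which binds free hemoglobin) by 3.26, with limma adjusted p of 0.0445, 0.0341, 0.0443 and 0.0433. In an acute-phase list drawn up after these values had been seen, 10 of 21 genes were called as rises (1.47% over all genes), or 15 of 19 without BDL 3, and all 21 fold changes were positive. The median of that list was 3.10, or 3.59 without BDL 3, against 0.03 over all genes. Its summed level was 403, 284 and 251 FPKM in Sham and 1672, 8504 and 1651 in BDL, so BDL 2 was far above the other BDL libraries.

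The hepatocyte marker list moved beside it. Of its 19 tested genes 1 was called, Trf (transferrin, 1.92, adjusted p = 0.0242), 16 fold changes were positive and the median was 1.80, or 1.39 without BDL 3, when 3 rose. The summed level was 1705, 989.6 and 577 FPKM in Sham and 1454, 4759 and 3481 in BDL. Albumin (Alb) stood at 631, 437 and 342 in Sham and at 613, 2112 and 1623 in BDL, so BDL 1 lay within the Sham range. In MPH, 20 of the 21 acute-phase fold changes were positive and their median was 1.70. Limma called none of the 21 as different from MPH (0.404% over all genes). In BECs 8 of 20 were positive with a median of -0.33, and 7 of 21 differed, all higher in Kupffer-like cells (3.5% over all genes). The part of hepatocyte RNA in the acute-phase rises was not tested. With the hepatocyte list as a covariate limma called 0 genes, with 1274 at an unadjusted p under 0.05.

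Ms4a4a and Il1r2, known from macrophages and granulocytes, were also among the 10. Ms4a4a, a tetraspan membrane protein of macrophages (chromosome 19, 11375523 to 11392790, plus strand), stood at 5.88, 2.64 and 5.2 FPKM in Sham and at 86.8, 161 and 41.6 in BDL (3.98, SE 0.51, adjusted p = 0.027). Il1r2, the decoy receptor that captures interleukin 1 without signalling, stood at 9.05, 2.1 and 2.51 in Sham and at 56.1, 47 and 82.6 in BDL (3.68, SE 0.48, adjusted p = 0.0272). Both genes were high in all 3 BDL libraries, and neither group overlapped the other. In BECs and MPH, Ms4a4a changed by 2.29 and 4.07 and Il1r2 by 2.16 and 2.68. Mat1a, which makes S-adenosylmethionine in hepatocytes, was the other gene among the 10 and rose by 3.45 (adjusted p = 0.0419).

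**Figure D1:**
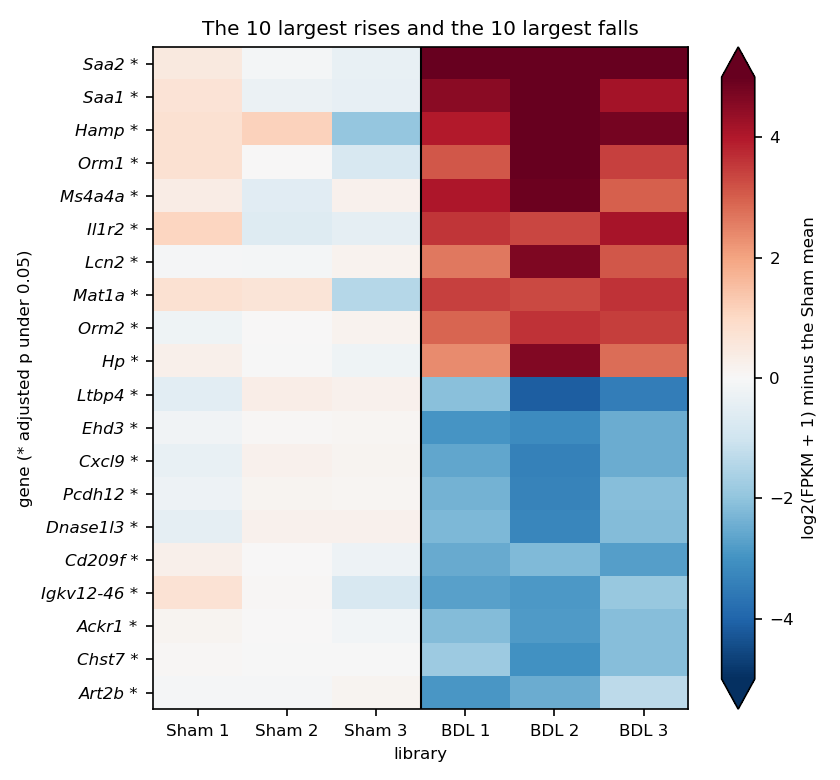
Each row is a gene among the 10 largest rises (upper rows) or the 10 largest falls (lower rows) and each column a library; colour is log2(FPKM + 1) minus the mean of the 3 Sham libraries, in log2 units, and saturates at the ends of the bar. Every gene has its 3 BDL libraries on one side of its 3 Sham libraries, which the choice of genes required. BDL 2 holds the highest values of Saa1, Saa2, Orm1, Lcn2 and Hp.

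The 10 largest falls held 1 gene of the sinusoidal endothelial list, Dnase1l3. Ltbp4, a matrix protein that stores latent TGF-beta, fell by 3.22 on the log2 scale (adjusted p = 0.0412). Ehd3, an endocytic recycling protein, stood at 184, 217 and 223 FPKM in Sham and at 26, 22.4 and 36 in BDL (-2.86, SE 0.22, adjusted p = 0.0208). Pcdh12, a protocadherin of endothelial junctions, changed by -2.62, and Dnase1l3, a secreted nuclease that digests chromatin, by -2.56, both falls, with adjusted p of 0.0267 and 0.032. Ackr1, an atypical receptor that binds many chemokines, stood at 17.1, 15.8 and 13.9 in Sham and at 2.7, 1.34 and 2.81 in BDL (-2.36, SE 0.22, adjusted p = 0.0208). Ehd3 and Ackr1 were tight within each group, with every BDL library under every Sham library by several fold.

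Cd209f, a C-type lectin of the DC-SIGN family, fell to under 1 FPKM in each BDL library, from 9.18, 7.5 and 6.09 in Sham to 0.498, 0.845 and 0.269 (-2.48, SE 0.21, adjusted p = 0.0208). It was kept by the level rule through the Sham libraries alone, as were 37 of the 306 falls. Its relative Cd209b fell by 1.31 (adjusted p = 0.0447). The others among the 10 were the chemokine Cxcl9, the immunoglobulin segment Igkv12-46 (-2.48), the sulfotransferase Chst7 (-2.31) and the ADP-ribosyltransferase Art2b (-2.23), with adjusted p of 0.0208, 0.0433, 0.0282 and 0.0441.

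Sinusoidal endothelial markers were lower as a list. Of 17 tested genes 5 fell (2.4% over all genes), and the median was -1.28 with or without BDL 3. All 17 fold changes were negative, also under each of the 4 other scalings. The 5 were Dnase1l3, Kdr (the VEGF receptor, -2.11), Gpr182 (an atypical chemokine receptor, -2.02), Ptprb (a vascular tyrosine phosphatase, -1.52) and Stab2 (the hyaluronan clearance receptor, -1.28), with adjusted p from 0.0248 to 0.0478. Their summed level was 1978, 2535 and 2526 FPKM in Sham and 1521, 536 and 639 in BDL, so BDL 1 lay much nearer to Sham than the other BDL libraries. Kdr itself stood at 117, 157 and 161 in Sham and at 38.5, 23.6 and 38.1 in BDL, with BDL 1 and BDL 3 close to each other.

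Resident Kupffer genes gave no calls with all 6 libraries and rises without BDL 3. None of the 20 tested passed limma at an adjusted p under 0.05 or voom on recovered reads, 2 had an unadjusted p under 0.05, 10 fold changes were positive and 10 negative, and the median was 0.01, or -0.31 under a common FPKM sum. Without BDL 3, 10 of the 20 rose (9.28% over all genes), none fell and the median was 0.75, in a fit run on the deposited scale only. The summed level was 5453, 5323 and 6453 FPKM in Sham and 11285, 8351 and 2135 in BDL, above Sham in BDL 1 and BDL 2 and below it in BDL 3. Marco, the scavenger receptor for unopsonised bacteria, stood at 378, 152 and 299.5 in Sham and at 2461, 1304 and 369 in BDL (2.03, adjusted p = 0.171; 2.79 without BDL 3, adjusted p = 0.0197). Vsig4 changed by 0.05 with all libraries and by 1.01 without BDL 3 (adjusted p = 0.017), while Clec4f changed by -0.93 and -0.17 and was called in neither fit.

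The macrophage-wide list followed the same split between libraries. Neither limma nor voom called any of its 20 genes with 6 libraries (3 at an unadjusted p under 0.05, median 0.26), and 10 rose without BDL 3 (median 0.70). C1qa, a chain of the complement trigger C1q, stood at 1418, 1394 and 1519 FPKM in Sham and at 3530.1, 2281 and 399 in BDL. The Fc receptor Fcgr4 stood at 88.6, 108 and 115 in Sham and at 469, 600 and 71.4 in BDL. Both genes were highest in BDL 1 or BDL 2 and lowest of all 6 libraries in BDL 3. Under the common FPKM sum or quantile normalization the median of the macrophage-wide list with 6 libraries was below 0, at -0.07 and -0.09.

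**Figure D2:**
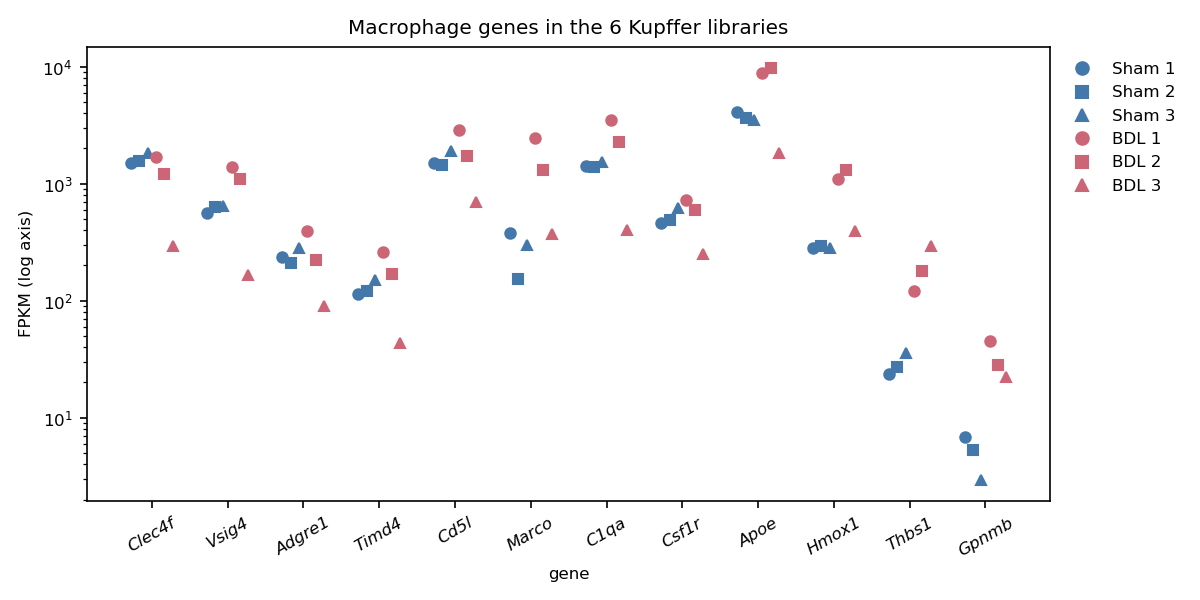
Points are the FPKM of 12 macrophage genes in each library on a log axis, blue for Sham and red for BDL, with the marker shape giving the library number. BDL 3 (red triangles) is the lowest of the 6 libraries for Clec4f, Vsig4, Adgre1, Timd4, Cd5l, C1qa, Csf1r and Apoe, and all 3 BDL libraries are above all 3 Sham libraries for Hmox1, Thbs1 and Gpnmb.

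Iron handling, a task of Kupffer cells after they engulf red cells, had 3 rises among 17 listed genes, Hamp, Lcn2 and Trf, with a median of 0.65. Hamp and Trf are also made by hepatocytes, with means of 998 and 408 FPKM in Sham MPH against 11.3 and 14 in Sham Kupffer libraries, and Trf is the 1 called gene of the hepatocyte list. The part of hepatocyte RNA in these rises was not tested. Without BDL 3, 11 rose and the median was 0.78. Hmox1, the heme oxygenase that opens the heme ring, stood at 283, 293 and 283 FPKM in Sham and at 1104, 1298 and 392 in BDL (1.52, SE 0.47, adjusted p = 0.125; 2.06 without BDL 3, adjusted p = 0.0028). All 3 BDL libraries were above Sham for Hmox1, BDL 3 by much less than the others. The haptoglobin-hemoglobin receptor Cd163 stood at 118, 85.9 and 132 in Sham and at 349, 598 and 29.9 in BDL, and the ferritin heavy chain Fth1 at 1610.1, 1468 and 1641 in Sham and at 3412, 3527 and 2898 in BDL.

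Complement gave 1 rise among 20 genes (1.47% over all genes) and 13 without BDL 3 (9.28% over all genes), with medians of 0.21 (-0.10 under a common FPKM sum) and 1.03. The rise was C5ar1, the receptor for the anaphylatoxin C5a (chromosome 7, 16246743 to 16259540, minus strand), at 16.5, 17 and 15.8 FPKM in Sham and 60.4, 72.2 and 63.4 in BDL (1.92, SE 0.14, adjusted p = 0.0208). The C5ar1 values were tight in both groups, BDL 3 included. LXR targets and sterol efflux genes had no calls by limma or voom among 14 (4 at an unadjusted p under 0.05, median 0.53) and 7 rises without BDL 3 (median 1.05), among them Apoe (1.31, adjusted p = 0.00768) and Abca1, the cholesterol exporter (1.87, adjusted p = 0.036). Among 24 lysosomal genes 1 rose (1.47% over all genes), the galactosidase Gla (1.25, adjusted p = 0.046), and 14 rose without BDL 3 (9.28% over all genes). The medians were 0.34 (-0.08 under quantile normalization) and 0.65.

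Antioxidant genes had 3 rises among 21 (1.47% over all genes), 20 of 21 fold changes positive and a median of 0.88. Without BDL 3 the median was 0.62 and 8 rose (9.28% over all genes). Gsr, glutathione reductase (chromosome 8, 33652523 to 33698163, plus strand), stood at 39.4, 38.3 and 43.2 FPKM in Sham and at 171, 211 and 133 in BDL (2.04, SE 0.21, adjusted p = 0.0208). Sod2, the mitochondrial superoxide dismutase, rose by 1.30 and Txnrd1, thioredoxin reductase, by 1.25, with adjusted p of 0.027 and 0.0272. For Gsr, Sod2 and Txnrd1 every BDL library was above every Sham library. Nuclear genes of the respiratory chain had no call by limma or voom among 23, 15 at an unadjusted p under 0.05, a median of 0.41 and 18 genes whose groups did not overlap, all higher in BDL (16.7% over all genes). The median was 0.12 under a common FPKM sum, and 5 genes rose without BDL 3. All 23 fold changes were positive as deposited, and 17 to 23 were positive under the 4 other scalings.

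Receptors of innate recognition had 3 rises and 1 fall among 22 tested genes, with a median of 0.61, and 11 rises and 2 falls without BDL 3. Clec4d, a lectin that senses mycobacterial lipids, stood at 15.2, 7.21 and 5.47 FPKM in Sham and at 55, 51.3 and 72.3 in BDL (2.65, SE 0.36, adjusted p = 0.0282). Tlr13, a sensor of bacterial ribosomal RNA, rose by 1.60 and Tlr2, a sensor of bacterial lipoproteins, by 0.76, while Nod1, a cytosolic sensor of peptidoglycan, fell by 0.85, with adjusted p of 0.0412, 0.0489 and 0.0368. Trem1, which amplifies myeloid activation, stood at 11.4, 4.33 and 7.1 in Sham and at 57.1, 59 and 99 in BDL (3.12, SE 0.36, adjusted p = 0.0242). Clec4d and Trem1 were highest in BDL 3, unlike the resident Kupffer genes.

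Cytokine genes gave no calls with 6 libraries. Of 12 tested, limma and voom called 0, 3 had an unadjusted p under 0.05 (3070 of 12748 over all genes) and the median was 0.43. Without BDL 3, 3 rose and 2 fell. Il1b stood at 168, 441 and 413 FPKM in Sham and at 913, 934 and 456 in BDL (1.22, adjusted p = 0.2), and Tnf changed by 1.01 (adjusted p = 0.289). Il10, an inhibitory cytokine, stood at 20.7, 26.8 and 37.2 in Sham and at 138, 80.8 and 17.6 in BDL, so it was high in BDL 1 and BDL 2 and lowest in BDL 3. Limma and voom called 0 of 17 NF-kappa-B feedback genes and 0 of 14 alternative activation genes, with 5 of each at an unadjusted p under 0.05, medians of 0.27 (-0.04 under a common FPKM sum) and -0.03, and counts without BDL 3 of 3 rises and 1 fall, and of 2 rises and 1 fall.

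Chemokine genes gave calls in both directions. Of 23 tested genes 1 rose and 2 fell, and 7 rose and 4 fell without BDL 3. Cxcl2, which attracts neutrophils through Cxcr2, stood at 180.4, 115 and 131 FPKM in Sham and at 623, 606 and 408 in BDL (1.93, SE 0.28, adjusted p = 0.032). Cxcl9 and Cxcl10, interferon-induced ligands of Cxcr3 on T cells, fell. Cxcl9 stood at 23.4, 35.8 and 34 in Sham and at 4.25, 2.07 and 4.71 in BDL (-2.80, SE 0.29, adjusted p = 0.0208), and Cxcl10 at 133, 94.8 and 94.9 in Sham and 38.2, 32.9 and 26.6 in BDL (-1.69, SE 0.22, adjusted p = 0.027). Neither gene overlapped between the groups. Ccr1, a receptor for inflammatory CC chemokines, rose from 7.53, 4.16 and 5.04 to 30.4, 28.5 and 36.2 (2.34, SE 0.22, adjusted p = 0.0208).

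Interferon-stimulated genes were lower after ligation. Of 27 tested, 10 fell (background 2.4%) and none rose, all 27 fold changes were negative with the deposited scale and under each of the 4 other scalings, and 22 had every BDL library under every Sham library (background 15.6%). The median was -0.99, or -1.03 without BDL 3, when 16 fell. They included Ifit1, Ifit2, Ifit3 and Ifit3b (which bind or sense foreign RNA), Ddx58 (the RNA sensor RIG-I), Usp18 (which removes Isg15), Mx2, Cmpk2 and Xaf1. Ifit2 (chromosome 19, 34550694 to 34576419, plus strand) stood at 30.3, 26.1 and 31.7 FPKM in Sham and at 8.4, 10.3 and 8.99 in BDL (-1.57, SE 0.14, adjusted p = 0.0208). Ifit1 stood at 12, 10.8 and 12 in Sham and at 3.73, 1.85 and 4.12 in BDL (-1.62, SE 0.24, adjusted p = 0.0348). BDL 3 lay with BDL 1 and BDL 2 for both genes, unlike for the Kupffer markers. Ifit3 and Ifit3b are near-identical copies whose reads may be split between them.

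The interferon genes did not all fall by the same amount. Gbp2, a guanylate-binding protein, stood at 27.6, 27.2 and 32 FPKM in Sham and at 16.7, 30.5 and 28.1 in BDL (-0.24, adjusted p = 0.589), and Irf7, the regulator of interferon-alpha genes, changed by -0.80 (adjusted p = 0.269). Outside the list, 3 of the Ifi200 family of DNA-binding proteins fell: Ifi208, Ifi213 and Ifi203, the last by 1.31 (adjusted p = 0.0214). Ifi208 stood at 10.2, 8.47 and 9.53 in Sham and at 1.35, 1.55 and 2.55 in BDL (-1.91, SE 0.19, adjusted p = 0.0208). Ifi213 stood at 9.78, 10.3 and 13.5 in Sham and at 2.79, 2.54 and 3.19 in BDL (-1.66, SE 0.16, adjusted p = 0.0208). The neighbours Ifi207 (0.67, adjusted p = 0.3) and Ifi204 (0.03, adjusted p = 0.975) were not called, so the family did not move as one.

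**Figure D3:**
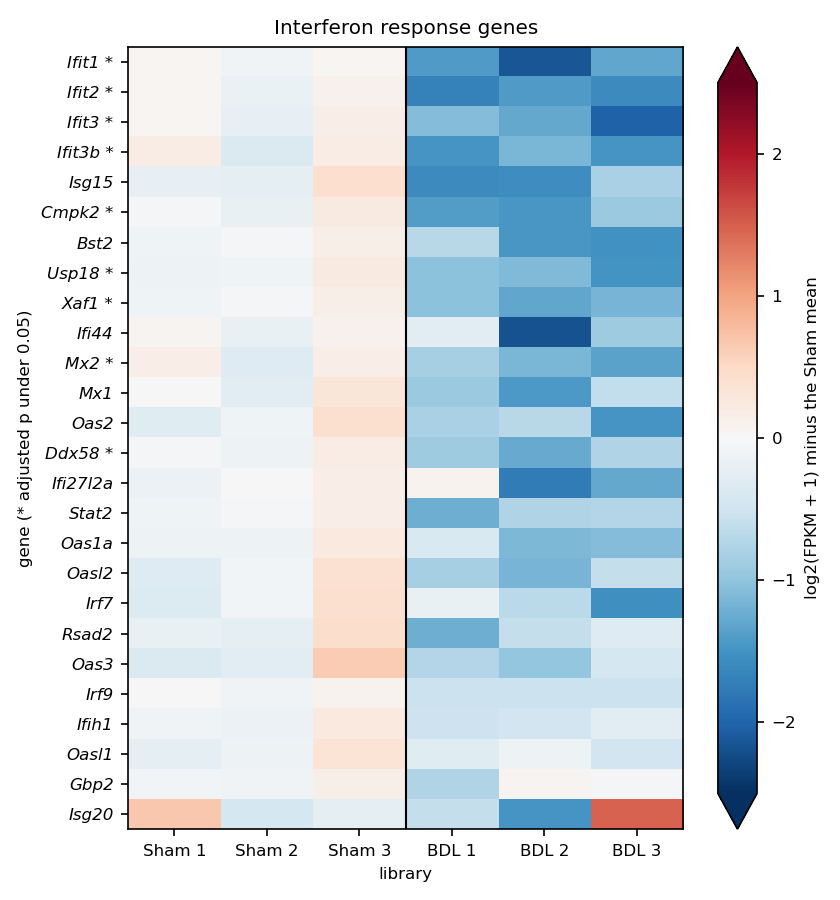
Rows are 26 of the interferon-stimulated genes ordered by log2 fold change and columns the 6 libraries; colour is log2(FPKM + 1) minus the Sham mean, and asterisks mark the 9 called genes among them. The BDL columns are blue for most rows, with Isg20 in BDL 3 (25.8 FPKM against 6.12 to 14.4 in Sham) as the clearest exception.

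Promoters of some of these genes are shown with the interferon-stimulated response element, a sequence known from interferon biology. It was searched as GAAA, any pair of bases, GAAA, on either strand, in the 300 bases from 250 before to 50 after each RefSeq start (GRCm38.p6). It occurred in 3.99% of the promoters of 27025 gene symbols and in 4.13% of the 9077 members with a promoter in that table. Of the 21 interferon list genes with a promoter, 12 held it (57.1%). Among called falls 21 of 214 held it (9.81%), and among called rises 8 of 136 (5.88%). Of the 7 called interferon genes with a promoter 4 held it, Ifit1, Ifit3, Ifit3b and Ddx58, the same 57.1% as in the whole list. The called genes Ifit2, Xaf1 and Cmpk2 did not hold it. A match describes letters only, and a part of the element in the falls was not tested. The stretches below end at the base before the RefSeq start, read 5′ to 3′ on the strand of the gene, with the element in capitals. They lie at chr19:34640769-34640888 on the plus strand for Ifit1, chr19:34607767-34607956 on the plus strand for Ifit3b, chr5:92348890-92349109 on the minus strand for Cxcl10, chr1:173673545-173673664 on the plus strand for Ifi208 and chr1:173599273-173599392 on the minus strand for Ifi213.
Ifit1: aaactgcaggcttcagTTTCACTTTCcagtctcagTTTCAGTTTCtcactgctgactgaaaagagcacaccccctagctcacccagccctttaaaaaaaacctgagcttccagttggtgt
Ifit3b: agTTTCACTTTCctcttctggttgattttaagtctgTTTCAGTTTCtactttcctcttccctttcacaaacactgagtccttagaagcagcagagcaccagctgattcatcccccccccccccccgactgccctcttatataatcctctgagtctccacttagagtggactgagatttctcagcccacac
Cxcl10: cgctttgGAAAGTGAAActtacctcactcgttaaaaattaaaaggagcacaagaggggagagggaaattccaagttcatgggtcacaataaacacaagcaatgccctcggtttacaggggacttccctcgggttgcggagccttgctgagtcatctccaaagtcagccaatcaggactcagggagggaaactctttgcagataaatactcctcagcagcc
Ifi208: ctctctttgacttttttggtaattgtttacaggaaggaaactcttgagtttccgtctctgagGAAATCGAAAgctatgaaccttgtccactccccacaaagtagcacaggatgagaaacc
Ifi213: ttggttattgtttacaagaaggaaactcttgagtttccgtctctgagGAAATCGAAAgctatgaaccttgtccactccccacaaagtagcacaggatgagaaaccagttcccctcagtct
Ifit1 and Ifit3b each carry the element 2 times and the other 3 stretches carry it 1 time. The stretches of Ifi208 and Ifi213 share an unbroken run of 88 bases that contains the element.

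Promoters were also searched for TTGC, any pair of bases, AA, a form of the C/EBP element, on either strand. The acute-phase list was not counted as a set. It occurred in 12.2% of all promoters, in 10.8% of the members with a promoter, in 27 of 136 called rises (19.9%) and in 29 of 214 called falls (13.6%). Of the 7 largest rises with a promoter, 4 held it: Saa1, Saa2, Lcn2 and Orm2. Hamp, Ms4a4a and Il1r2 did not. Saa1 and Orm2 are shown, at chr7:46742981-46743170 on the minus strand and chr4:63362329-63362448 on the plus strand, with the element in capitals.
Saa1: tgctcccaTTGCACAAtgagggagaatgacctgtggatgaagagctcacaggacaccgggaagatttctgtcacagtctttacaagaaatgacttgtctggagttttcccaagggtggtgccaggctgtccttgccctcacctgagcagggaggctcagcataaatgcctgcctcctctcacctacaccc
Orm2: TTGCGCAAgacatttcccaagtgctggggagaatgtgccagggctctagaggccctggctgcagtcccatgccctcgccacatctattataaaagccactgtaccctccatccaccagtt
Each stretch carries the element 1 time. In Saa1 it lies far from the start, and in Orm2 it opens the printed stretch.

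Antigen presentation genes were lower for class I and mixed for class II. All 16 tested MHC class I genes had negative fold changes, under each scaling too, with a median of -0.45. Limma and voom called none, 5 had an unadjusted p under 0.05 (3070 of 12748 over all genes), and 3 fell without BDL 3 (9.1% over all genes). H2-Q4 stood at 117, 129.5 and 135 FPKM in Sham and at 42.3, 73.5 and 65.7 in BDL (-1.09, adjusted p = 0.0612), and reads of the H2-Q copies may be shared. Among 16 class II genes 1 rose, Cd80, a costimulatory ligand for T cells (1.18, adjusted p = 0.0412), with a median of -0.29, and 3 rose and 5 fell without BDL 3. H2-Aa, a class II chain, stood at 362, 466 and 358 in Sham and at 397, 504 and 267 in BDL. H2-Ob, a class II chaperone of B cells, stood at 20.1, 21.4 and 22.5 in Sham and at 1.44, 0.831 and 15.9 in BDL, with BDL 3 nearest to Sham.

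The B and plasma cell list had a lower summed level in every BDL library than in Sham, least so in BDL 3. Of 19 tested genes 1 fell, Jchain (the joining chain of secreted IgA and IgM, -1.17, adjusted p = 0.0465), which was lowest in BDL 3, and the median was -1.78. Without BDL 3, 16 fell, 1 rose and the median was -2.20. Their summed level was 1256, 1397 and 1614 FPKM in Sham and 474, 465 and 868 in BDL. T and NK cell genes had no call by limma and 1 fall by voom among 19, with 11 at an unadjusted p under 0.05, all fold changes negative, a median of -1.07, and 14 falls without BDL 3. Their summed level was 376, 323 and 298 in Sham and 70.5, 157 and 324 in BDL, with BDL 3 within the Sham range. Among 13 dendritic cell genes 2 fell, Zbtb46 (-1.59, adjusted p = 0.027) and the actin bundler Fscn1 (-1.69, adjusted p = 0.0433), and 6 of 12 fell without BDL 3.

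Neutrophil genes gave 4 rises. Of 15 tested these were Mmp8, Retnlg, S100a8 and Cxcr2 (1.47% rises over all genes), and the median was 1.01. Without BDL 3, 7 of 14 rose (9.28% over all genes). Mmp8, a granule collagenase, stood at 2.97, 2.18 and 2.2 FPKM in Sham and at 18.7, 17.6 and 23.5 in BDL (2.60, SE 0.17, adjusted p = 0.0208). S100a8, a calprotectin subunit, stood at 88.8, 82.2 and 87.3 in Sham and at 286, 243 and 651 in BDL (2.04, SE 0.39, adjusted p = 0.0477). The summed neutrophil level was 385, 373 and 399.9 in Sham and 1072, 1068 and 2757 in BDL, highest in BDL 3, and Ly6g, the defining surface marker, was under the level rule at 0.499 to 5.95. Of the granule genes, Mpo changed by -0.03 (adjusted p = 0.975), Camp by 0.36 (adjusted p = 0.673) and Ltf by 0.01 (adjusted p = 0.994). The part of neutrophil RNA in the rises of Trem1, Clec4d, Il1r2 and Lcn2 was not tested.

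Monocyte genes had 4 rises among 14 (1.47% over all genes) and a median of 1.07. The 4 were Hp, F13a1 (a transglutaminase subunit, 2.11, adjusted p = 0.0236), Ifitm6 (1.57, adjusted p = 0.0433) and Ccr2, the receptor for Ccl2, and 6 rose and 1 fell without BDL 3. Hp is also an acute-phase product of hepatocytes, at a mean of 4646 FPKM in Sham MPH against 54.5 in Sham Kupffer libraries, and the part of hepatocyte RNA in its rise was not tested. Ccr2 stood at 9.81, 8.14 and 7.5 FPKM in Sham and at 20.6, 15.5 and 27.4 in BDL (1.20, SE 0.23, adjusted p = 0.0469). Ly6c2, the surface marker of classical monocytes, stood at 25.9, 17 and 20.9 in Sham and at 8.7, 10.5 and 39.5 in BDL (-0.41, adjusted p = 0.686). Ccr2 was higher in every BDL library, while Ly6c2 was lower in BDL 1 and BDL 2 and highest in BDL 3.

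Genes of lipid- and scar-associated macrophages had 2 rises among 15, a median of 0.33 (0.01 under a common FPKM sum), and 6 rises without BDL 3. Gpnmb, a lysosomal glycoprotein of these cells, stood at 6.86, 5.31 and 2.93 FPKM in Sham and at 45.1, 28.3 and 22.3 in BDL (2.45, SE 0.35, adjusted p = 0.032). Lgals3, galectin 3, rose by 1.58 (adjusted p = 0.0402). Trem2, the lipid receptor of these cells, stood at 8.05, 5.22 and 3.63 in Sham and at 18.6, 19.9 and 10.5 in BDL (1.39, adjusted p = 0.0731; 1.66 without BDL 3, adjusted p = 0.0203), and Spp1 changed by 0.23 (adjusted p = 0.719). Gpnmb, Lgals3 and Trem2 were higher in every BDL library than in any Sham library.

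Matrix and fibrosis genes had 4 rises among 29 tested (1.47% over all genes), Thbs1, Mmp8, Lox and Tgfbi, with a median of 0.24, or -0.09 under a common FPKM sum. Without BDL 3, 9 rose and 1 fell (9.28% and 9.1% over all genes). Thbs1, which can activate latent TGF-beta, stood at 23.5, 26.9 and 35.7 FPKM in Sham and at 122, 179 and 295 in BDL (2.68, SE 0.35, adjusted p = 0.0272). Tgfbi, a secreted matrix protein, stood at 45.6, 48.3 and 57.5 in Sham and at 133, 264 and 146 in BDL (1.76, SE 0.30, adjusted p = 0.0412). Lox, a collagen crosslinking enzyme kept by the level rule through BDL alone, stood at 0.609, 0.203 and 0.185 in Sham and at 11.8, 15.4 and 3.21 in BDL. The ligand Tgfb1 changed by -0.39 (adjusted p = 0.539), and the inhibitor Timp1 stood at 4.8, 2.31 and 4.79 in Sham and at 74.6, 59.3 and 8.48 in BDL (2.87, adjusted p = 0.1). Stellate and fibroblast markers were also higher in BDL 1 and BDL 2, with a summed level of 195, 204 and 162 in Sham and 448, 447 and 212 in BDL and 1 rise among 17, Acta2 (1.80, adjusted p = 0.0272), or 5 without BDL 3. The part of RNA from such cells in the matrix genes was not tested.

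Mesothelial transcripts, listed after the values had been seen, were also higher. Of 12 genes 6 rose (1.47% over all genes), or 6 of 10 without BDL 3 (9.28% over all genes), all 12 fold changes were positive and the median was 1.42. Upk1b, a uroplakin of the liver surface lining, stood at 1.45, 1.5 and 0.639 FPKM in Sham and at 22.9, 15 and 6.77 in BDL (2.74, adjusted p = 0.0369). The summed level was 82.1, 51.1 and 23.4 in Sham and 232, 245 and 269 in BDL. Gata6, a transcription factor of peritoneal macrophages and mesothelium, rose by 0.94 (adjusted p = 0.0306) at 1.27 to 1.54 in Sham and 3.22 to 3.83 in BDL. Biliary markers gave no call by limma or voom among the 5 tested, with 1 at an unadjusted p under 0.05 and 1 rise without BDL 3. Of the 5 fold changes 3 were positive and 2 negative. Krt19 stood at 5.27, 2.82 and 1.68 in Sham and at 12.2, 13 and 8.49 in BDL (1.59, limma adjusted p = 0.0562), and Aqp1 changed by -1.03. Under the level rule, Krt7 stood at 0.465, 0.247 and 0.316 in Sham and at 2.22, 2.88 and 0.879 in BDL. Sctr and Cftr stayed under 0.2 FPKM in all 6 libraries.

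**Figure D4:**
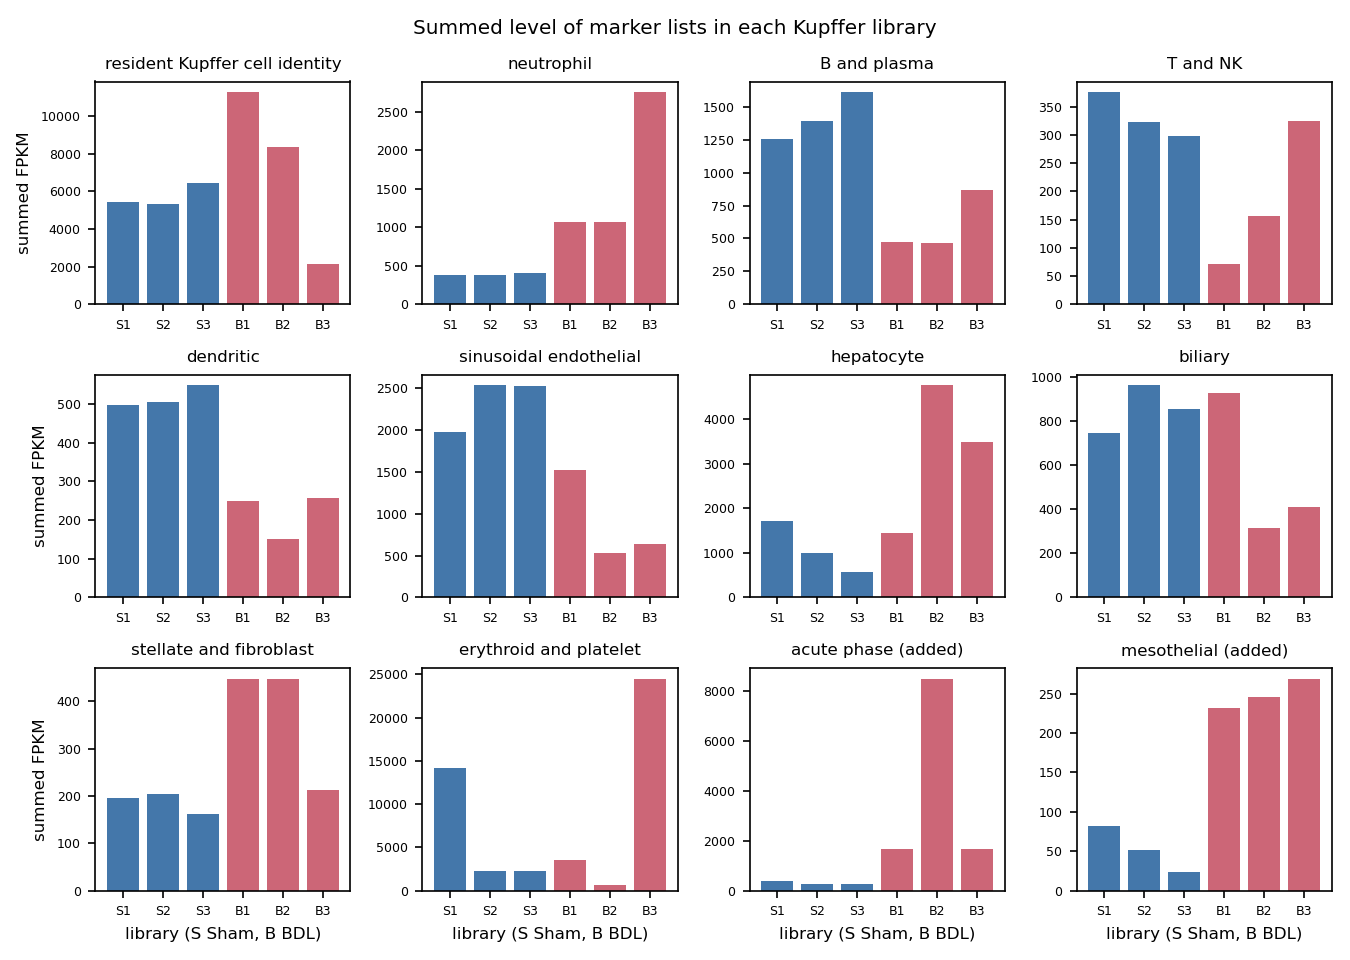
Bars are the summed FPKM of each marker list in Sham 1 to 3 (blue) and BDL 1 to 3 (red), each panel with its own axis from 0. Resident Kupffer genes fall to 2135 in BDL 3 while neutrophil genes reach 2757 there, hepatocyte and acute-phase genes peak in BDL 2, and endothelial genes are lowest in BDL 2 and BDL 3.

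Among transcription factors Nfil3, a repressor under circadian and cytokine control, stood at 16.2, 11.1 and 11.8 FPKM in Sham and at 57.1, 68.1 and 53.6 in BDL (2.12, SE 0.19, adjusted p = 0.0208). The groups were far apart and BDL 3 lay with the others. Of 14 tested circadian clock genes Nfil3 was the 1 called, and the median was 0.47. Without BDL 3, 3 of 13 rose and 1 fell. Hif1a, the oxygen-sensing factor, rose by 0.63 (adjusted p = 0.0441) from 12 to 13.5 FPKM in Sham to 20.1 to 20.4 in BDL. Zeb1 fell by 1.17 and Notch1 by 0.67, with adjusted p of 0.0392 and 0.0479. The FXR gene Nr1h4, a bile acid receptor, changed by 1.07 (adjusted p = 0.183), and the membrane bile acid receptor Gpbar1 did not reach the level rule, at 0.0462 to 0.651 FPKM. Limma and voom called 0 genes among 25 of the cell cycle, 20 immediate early genes and 19 of ER stress, with 2, 1 and 0 at an unadjusted p under 0.05 and medians of 0.04, 0.10 and 0.03, or -0.17, -0.22 and -0.29 under a common FPKM sum. Without BDL 3, limma called 4 falls in the first list, 3 rises in the second and 2 in the last.

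**Figure D5:**
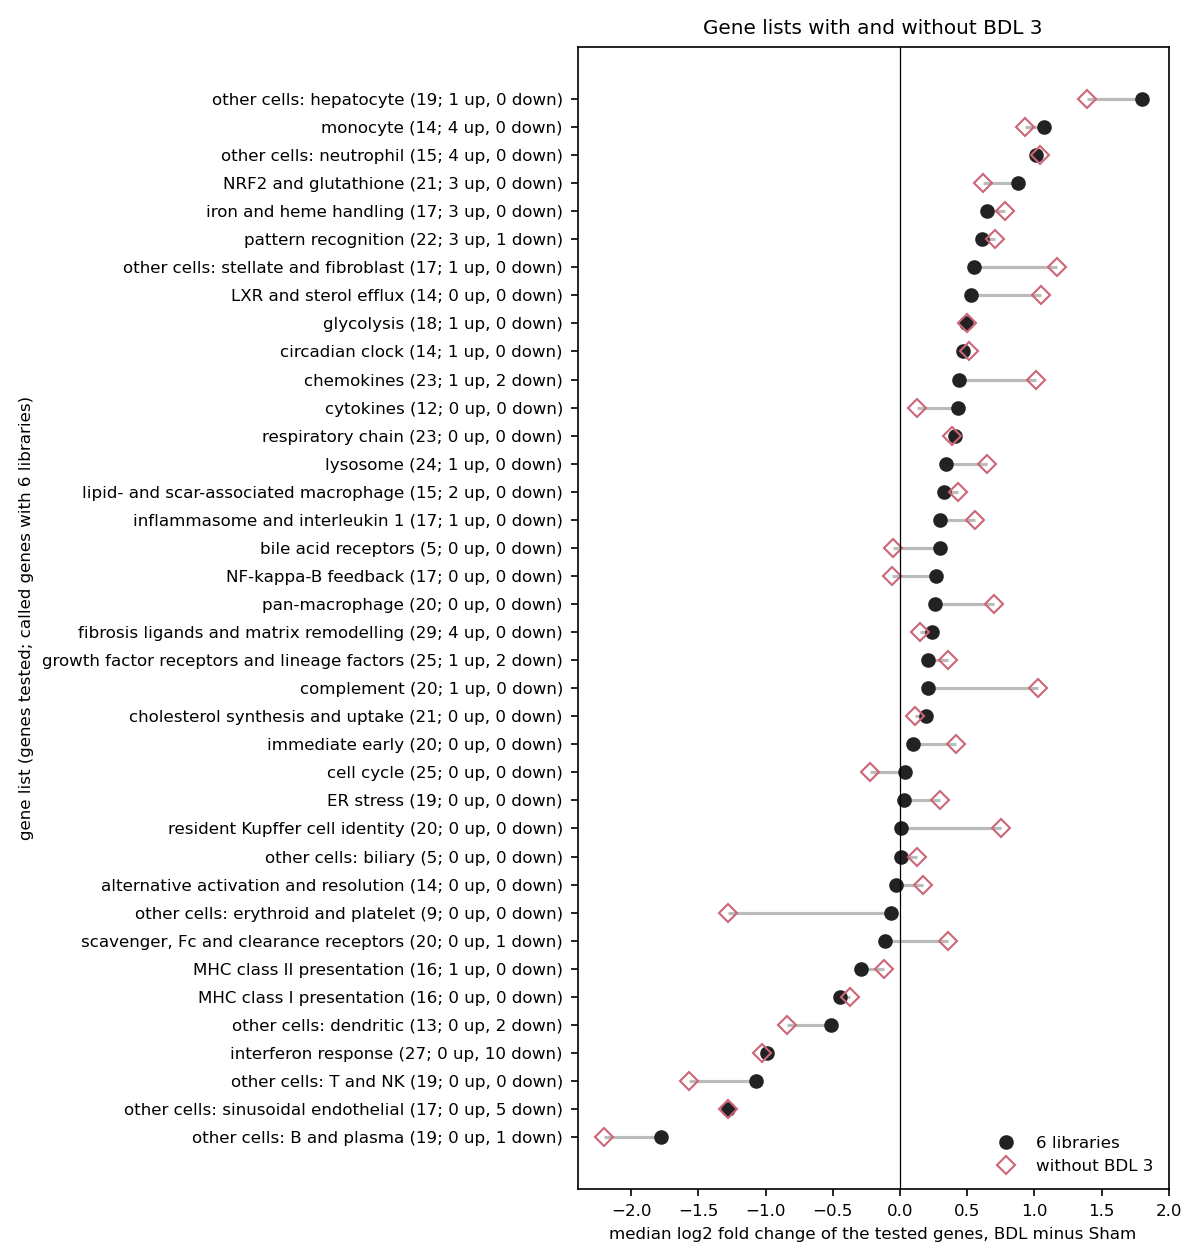
Each row is a gene list with its number of tested genes and of called rises and falls with 6 libraries; filled circles are the median log2 fold change with 6 libraries and open diamonds the median without BDL 3. The 2 medians differ most for complement, resident Kupffer and erythroid genes, and are within 0.05 of each other for interferon response, sinusoidal endothelial and neutrophil genes.

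The response was set against that of the other cell preparations by the interaction term of the limma fit. The change in Kupffer-like cells differed from that in BECs at 520 of 14874 genes (3.5%; 320 higher and 200 lower) and from that in MPH at 57 of 14101 (0.404%). Mean Xist was 6.19 FPKM (SD 10.7) in BECs Sham and 31.6 (SD 30.1) in BECs BDL, so sex may be unbalanced between the BECs groups. These differences were fitted without a sex covariate, and the part of sex in them was not tested. With the number in the library titles as a replicate block, which pairs 3 Kupffer with 3 MPH libraries, the second count was 468, all 57 among them. Under a common FPKM sum the difference from BECs was higher at 170 genes and lower at 432, and that from MPH higher at 6 and lower at 5, against 51 and 6 as deposited. Leaving out BECs Sham 1, Kupffer Sham 2 or Kupffer Sham 3 lowered the first count to 38, 44 and 38, and leaving out Kupffer BDL 3 raised it to 1773. The second count was 3, 4 and 3 without Kupffer Sham 3, Kupffer Sham 2 and MPH Sham 1, 2 without MPH Sham 3, 3 without MPH BDL 3, and 382 without Kupffer BDL 3. It was also under the main count by more than 1.5 times without Kupffer Sham 1 (8), Kupffer BDL 1 (20), Kupffer BDL 2 (14) and MPH BDL 2 (7). The first was 290, 316, 217, 183, 281 and 229 without BECs Sham 2, BECs Sham 3, BECs BDL 1, BECs BDL 2, Kupffer Sham 1 and Kupffer BDL 2.

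The interferon list had a negative median after ligation in all 3 preparations, and limma called no difference for its 27 genes against BECs or MPH, with 3 and 1 at an unadjusted p under 0.05. These comparisons share the Kupffer libraries. Its median was -0.99 in Kupffer-like cells, -0.51 in BECs, where 3 of 26 fold changes were positive, and -1.31 in MPH, where 0 of 27 were. MPH Sham libraries averaged 733 FPKM of the Kupffer marker Clec4f and 325 of Vsig4, and MPH BDL libraries 491 and 307. Title numbers are also shared by 3 Kupffer and 3 MPH libraries. MPH values are thus not a reading of hepatocytes alone, and how much of the MPH fall came from Kupffer RNA was not tested. Nfil3 rose more in Kupffer-like cells than in BECs, where its mean was 50.5 FPKM in Sham and 36.9 in BDL (difference 2.58, adjusted p = 0.00433). Gsr differed in the same direction (1.67, adjusted p = 0.0146), with a BECs mean of 23.1 in Sham and 30.2 in BDL. Among 22 antioxidant genes 4 differed from BECs, all higher in Kupffer-like cells (background 3.5%), and among 23 respiratory chain genes 4, likewise all higher. Of the 19 hepatocyte markers 11 differed, all higher in Kupffer-like cells, where their median was 1.80 against -2.38 in BECs, so the medians had opposite signs in these preparations.

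Sult1a1, a phenol sulfotransferase, stood at 34.9, 39.3 and 34.2 FPKM in Sham and at 189, 142 and 131 in BDL in Kupffer-like cells, and at means of 77.5 and 35.9 in BECs (difference 3.15, adjusted p = 0.0012). Gpt2, a mitochondrial alanine aminotransferase, stood at 5.74, 4.81 and 2.99 in Sham and at 27.7, 28.2 and 31.9 in BDL, and at means of 33.3 and 16.7 in BECs (difference 3.45, adjusted p = 0.0012). Both genes moved in opposite directions in the 2 preparations. In MPH, the mean Clec4f level was 733 FPKM in Sham and 491 in BDL. Sult1a1 means there were 211 in Sham and 477 in BDL, and the limma difference from MPH was 0.88 (adjusted p = 0.18). Gpt2 means in MPH were 72.7 and 148, with a difference of 1.53 (adjusted p = 0.122). Both genes thus had higher Sham means in MPH than in Kupffer-like cells (36.1 for Sult1a1 and 4.51 for Gpt2). The part of hepatocyte RNA in their rises was not tested. Msrb1, a methionine sulfoxide reductase, stood at 92.5, 76.9 and 72.1 in Sham and at 258, 312 and 208 in BDL in Kupffer-like cells, and its MPH means were 403 in Sham and 167 in BDL (difference 2.92, adjusted p = 0.0158).

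Genes at the edge of the level rule were those whose third-highest Kupffer value lay next to 1 FPKM. Ctnnal1 (1.0002) and Tbc1d32 (1.0005) were just inside, and Slc16a12 (0.9998) and Rtkn (0.9995) just outside.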

How the data were processed

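RNA of 6 Kupffer libraries was described, with 12 BECs and MPH libraries for contrast. Per the labels, polyA RNA was extracted with TRIzol and libraries were made with a VAHTS kit. The submitters' processing notes name CASAVA 1.8, fastp, HISAT2 2.0.5, featureCounts 1.5.0-p3, DESeq2 1.20.0 and GRCm38. Which gene annotation and strand setting were used is not given in the sources used here. The authors deposited 1 table of FPKM values. FPKM steps gave whole reads within 0.02 for 97.5% of 53636 genes, using GENCODE M21 exon lengths. The implied library size was 0.934 to 1.22 times the reads in genes, so the deposited FPKM carry a further scaling between libraries. Replicates differed beyond sampling noise (chi-square over degrees of freedom 18.4 to 237), so each counted as 1 sample.

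Genes at 1 FPKM or more in 3 Kupffer libraries were tested with limma 3.58.1 (R 4.3.3) on log2(FPKM + 1), with trend, robust variance and Benjamini-Hochberg adjustment over all 12748 genes. On data simulated for Kupffer BDL against Sham (12656 genes), 97% of 100 genes changed 2-fold and 99% of 100 changed 4-fold were recovered, with 22 false calls. The simulation gave both groups the spread of the Sham libraries. In the data the median ratio of the BDL to the Sham standard deviation was 1.96, so the recovery here is not known from it. Differences from BECs and MPH came from interaction terms. Replicates were numbered in accession order. Title numbers shared by 3 Kupffer and 3 MPH libraries paired them, though the labels do not say what the numbers stand for. Deviations from the group means correlated at 0.37, 0.27 and 0.32 in these pairs. They correlated at -0.37 to 0.25 in pairs of the same treatment that share no number. Members and gene lists were chosen with earlier results of these data known. Named genes were the 10 largest called rises and falls, the leading members of each list, the 3 most significant differences in each direction and a fixed set of macrophage genes. Others, such as Hmox1, C1qa, Fcgr4, Trem1, Ccr1, Timp1 and the acute-phase and mesothelial lists, were picked after their values were seen. The alternatives were other pseudocounts, filters, scalings, variance models, voom on recovered reads, covariates and leaving out each library. Promoters came from RefSeq (GRCm38.p6), matched by symbol for 9077 members.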

Additional observations from a re-analysis of the deposited data

Results flagged for a closer look

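The response of Kupffer-like cells differed from that of BECs by a limma interaction test for 6 named genes, as log2 differences of the changes. The difference was 2.58 for Nfil3, 3.15 for Sult1a1 and 3.45 for Gpt2, all higher in Kupffer-like cells. It was -1.89 for Ifi208, -1.64 for Ifi213 and -1.54 for Gpr155, a lysosomal cholesterol sensor that stood at 7.86, 8.41 and 7.22 FPKM in Kupffer Sham and at 1.57, 1.91 and 2.41 in Kupffer BDL. In BECs these 3 genes had means near or under 1 FPKM in Sham and BDL (0.482 and 0.472 for Ifi208, 0.992 and 0.976 for Ifi213, 1.17 and 1.1 for Gpr155), so little fall could be seen there and the difference mostly restates the Kupffer fall. Against MPH the difference was 2.92 for Msrb1, 1.61 for Echs1, an enzyme of fatty acid oxidation, and 3.52 for Ttc39c, all higher in Kupffer-like cells. Their adjusted p lay between 0.0012 and 0.0392. What lies behind these differences was not tested.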

How the results depend on the processing

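The 494 calls of ligation against sham became 323 and 286 with pseudocounts of 0.1 and 0.01, 742 with a common FPKM sum, 1222 with all 18 libraries sharing the spread, and 2 against a fold of 1.5. Limma called 0 genes with no level filter (3254 at an unadjusted p under 0.05), 1 with a sex covariate, 0 with a hepatocyte covariate and 0 with a B and plasma cell covariate (3037 at an unadjusted p under 0.05), and 1724 with a neutrophil covariate, which held 227 of the 494. Leaving out each library gave 0 to 2272 calls. Voom on recovered reads called 506, 429 of them among the 494. The 520 differences from BECs became 318 and 287 with the smaller pseudocounts, 13 with no filter, and 38 to 1773 with each library left out. The 57 differences from MPH became 11 and 12 with the smaller pseudocounts, 24 with no filter, 11 with a common FPKM sum, 24 with quantile normalization, 89 without trend and robust variance, 716 with all 18 libraries, 468 with the title number as a replicate block, and 2 to 382 with each library left out. The cause of these moves was not tested, save that no filter raised the genes tested to 38269. No paired analysis of ligation against sham was possible because the Kupffer groups share no number. Of the named genes' values under these settings, 1746 kept direction and side of the threshold, 737 lost the call, 67 gained one, and 49 values that were not called changed sign, such as Vsig4 (-0.28) and Spp1 (-0.09) under the common FPKM sum. No called value changed sign. Kupffer libraries had similar depth, and 3 libraries per group limit the precision of every fold change.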
